A study of Mus musculus with 12 samples.

Results

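The genes described here are 10 members of the contractile programme that serum response factor (SRF) is known to control: ACTA2, TAGLN, CNN1, MYL9, TPM1, TPM2, CALD1, ACTG2, VCL and SRF itself. They were found by full name among the 58735 genes of the FPKM table (fragments on a gene, divided by gene length and library size) of 12 RNA-Seq libraries of U2OS cells, a human osteosarcoma line. The 4 groups held 3 libraries each. The first was of cells labelled blank, with no handling given in the sources used here. In 2 others cells were given 1 of 2 siRNAs against SRSF1 (siSRSF1-2 and siSRSF1-3). The last was of cells made to overexpress LINC01134, a long non-coding RNA (OE-LINC01134). All groups shared 1 cell line, and all comparisons with the blank cells shared the same 3 blank libraries. No library was labelled as control siRNA or empty vector, so transfection and the agent cannot be told apart. The labels name mouse as the organism, but every gene carries a human Ensembl identifier. The vector of the overexpression is not given in the sources used here, and the siRNA dose and time in the methods are stated for HOS cells, another osteosarcoma line.

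SRF binds a short DNA element called the CArG box and works with either of 2 kinds of partner. The myocardin-related factors MRTFA and MRTFB are held in the cytoplasm by monomeric actin and enter the nucleus when actin is drawn into filaments, and with them SRF transcribes genes of actin filaments, tropomyosins, calponin and focal adhesions. Ternary complex factors such as ELK1 link SRF instead to growth factor signalling and immediate early genes. ACTA2, TAGLN and CNN1 are best known as markers of smooth muscle and of myofibroblasts.

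The knocked-down and overexpressed genes were checked first. SRSF1, a splicing factor, was at 35.9, 19.8 and 20.5 FPKM in the blank libraries, at 7.09, 7.46 and 7.41 with siSRSF1-2 and at 3.33, 6.81 and 7.90 with siSRSF1-3, so both siRNA groups lay below every blank library. With OE-LINC01134 SRSF1 was at 31.8, 29.6 and 30.3 FPKM, within the range of the blank libraries. LINC01134 was at 891, 1279 and 878 FPKM in the overexpressing libraries and between 0.496 and 1.11 FPKM in the 9 others.

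Several libraries stood apart from the others of their group. Reads on genes numbered 26237763 to 32954539 per library. Reads of blank replicates 2 and 3, of OE-LINC01134 replicates 1 and 3 and of all siSRSF1-2 replicates differed by only 2.14 to 3.20 times the sampling noise (chi-square over its degrees of freedom), while blank replicate 1, OE-LINC01134 replicate 2 and each siSRSF1-3 library differed from the rest of their group by 63.2 to 316 times. In siSRSF1-3 replicates 1 and 2, genes also moved by length: in replicate 1 the median gene of under 2000 bases was 0.32 higher on the log2 scale than the blank mean and the median gene of 8000 or more bases 0.41 lower, while in replicate 3 they were 0.12 and 0.02 higher. Nothing in the labels says whether replicates came from separate cultures, so p-values measure the spread between these libraries, which may be technical. In bulk RNA, fewer cells that express a gene and less RNA per cell cannot be told apart.

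In the blank cells the levels of the members were uneven. Tropomyosin 2 (TPM2), which winds along actin filaments and stabilises them, had the highest level of the 10, at 160, 158 and 160 FPKM. MYL9, the regulatory light chain whose phosphorylation switches on non-muscle and smooth muscle myosin, followed at 40.4, 32.0 and 32.4 FPKM. SRF was at 17.0, 21.4 and 20.5 FPKM and vinculin (VCL), which ties actin to cell adhesions, at 18.3, 15.6 and 15.4 FPKM.

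Caldesmon (CALD1), an inhibitor of actomyosin on thin filaments, was at 15.7, 11.1 and 11.6 FPKM. Transgelin (TAGLN), an actin cross-linker, varied most among the blank libraries, with 19.8 FPKM in replicate 1 against 7.97 and 8.37 in replicates 2 and 3. TPM1, the second tropomyosin of the set, was at 8.45, 4.82 and 5.06 FPKM, again highest in replicate 1. CNN1, the smooth muscle calponin that binds actin and slows myosin, was at only 1.95, 1.69 and 1.84 FPKM.

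Both smooth muscle actins were near the floor. ACTA2 was at 0.583, 1.51 and 1.57 FPKM in the blank libraries, and over all 12 libraries it ranged from 0.583 to 2.10 FPKM, or 46 to 179 reads. ACTG2, the enteric smooth muscle actin, had 0 to 6 reads per library and 21 reads in all, and a library without reads allows up to 3, by counting error only. ACTG2 did not pass the filter of a mean of 0.5 FPKM over the 12 libraries and was not tested, so 9 of the 10 members were tested, among 17538 genes.

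The actin of these libraries was non-muscle actin. ACTB and ACTG1, the cytoplasmic actins, made up 99.8% to 99.9% of the summed FPKM of the 6 actin genes in every library, ACTB ranging from 679 to 1264 FPKM and ACTG1 from 304 to 733 FPKM. ACTA2 made up 0.0321% to 0.214% of that sum. The skeletal actin ACTA1 and the cardiac actin ACTC1 stayed at or below 0.409 and 0.355 FPKM and were not tested. Of 9 smooth muscle markers, only ACTA2 and CNN1 passed the filter. That list left out TAGLN, which was at 2.79 to 19.8 FPKM over the 12 libraries. The defining marker MYH11, smooth muscle myosin, did not exceed 0.182 FPKM in any library, and desmin (DES) did not exceed 0.0743 FPKM, so these 2 defining markers were at or near 0. Leiomodin 1 (LMOD1), another marker of the list, was at 0.182, 0.824 and 1.101 FPKM in the blank libraries and at 0.243 to 0.565 FPKM in the others, and CNN1 and ACTA2 reached 3.37 and 2.10 FPKM.

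Marker lists of other cells were read beside the members. Of 8 osteoblast lineage markers 4 were tested, and their summed level was 83.4 to 92.5 FPKM in blank cells, 35.9 to 60.2 with OE-LINC01134, 51.9 to 54.0 with siSRSF1-2 and 49.4 to 57.5 with siSRSF1-3, so the sum was lower in all 3 manipulated groups. Most of it was SPP1 and COL1A1. Without overlap, 3 of the 4 were lower and 1 higher with siSRSF1-2, 2 and 1 with siSRSF1-3, and 3 and 0 with OE-LINC01134. The higher one was ALPL, at 7.53 to 7.87 FPKM with siSRSF1-2 and 7.27 to 12.9 with siSRSF1-3, against 5.30 to 5.94 in blank cells. With OE-LINC01134 ALPL was lower, at 1.09 to 2.22 FPKM. There 1 of the 4 was called lower (limma, adjusted p under 0.05, log2 fold change below -1), against 0.593% of all genes. The 4 mesenchymal markers, whose sum was mostly VIM, summed to 205 to 282 FPKM in blank cells and 91.0 to 278 with OE-LINC01134. The sum was 93.0 to 95.8 FPKM with siSRSF1-2 and 96.4 to 210 with siSRSF1-3. Without overlap, 3 of the 4 were lower with siSRSF1-2, 2 with siSRSF1-3 and 0 with OE-LINC01134, against 24.2%, 18% and 13.8% of all genes. With siSRSF1-2 2 were called lower at these limits, while 4.95% of all genes were called in either direction. PDGFRB overlapped there, at 2.13 to 2.25 FPKM against 1.95 to 2.34 in blank cells. Epithelial markers, of which 2 of 4 were tested, summed to 1.71 to 2.45 FPKM outside the siSRSF1-3 group and to 3.03 to 3.24 FPKM in it. The 9 smooth muscle markers summed to 3.13 to 4.90 FPKM in blank cells and 2.30 to 3.48 with OE-LINC01134. Their sum was 2.99 to 3.46 FPKM with siSRSF1-2 and 3.98 to 6.01 with siSRSF1-3. This list holds the members CNN1, ACTA2 and ACTG2, so its sum partly restates their levels. No skeletal muscle, endothelial or blood marker passed the filter, and their sums did not exceed 0.50, 0.662 and 0.196 FPKM. The part of these differences in the results that follow was not tested.

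**Figure D1:**
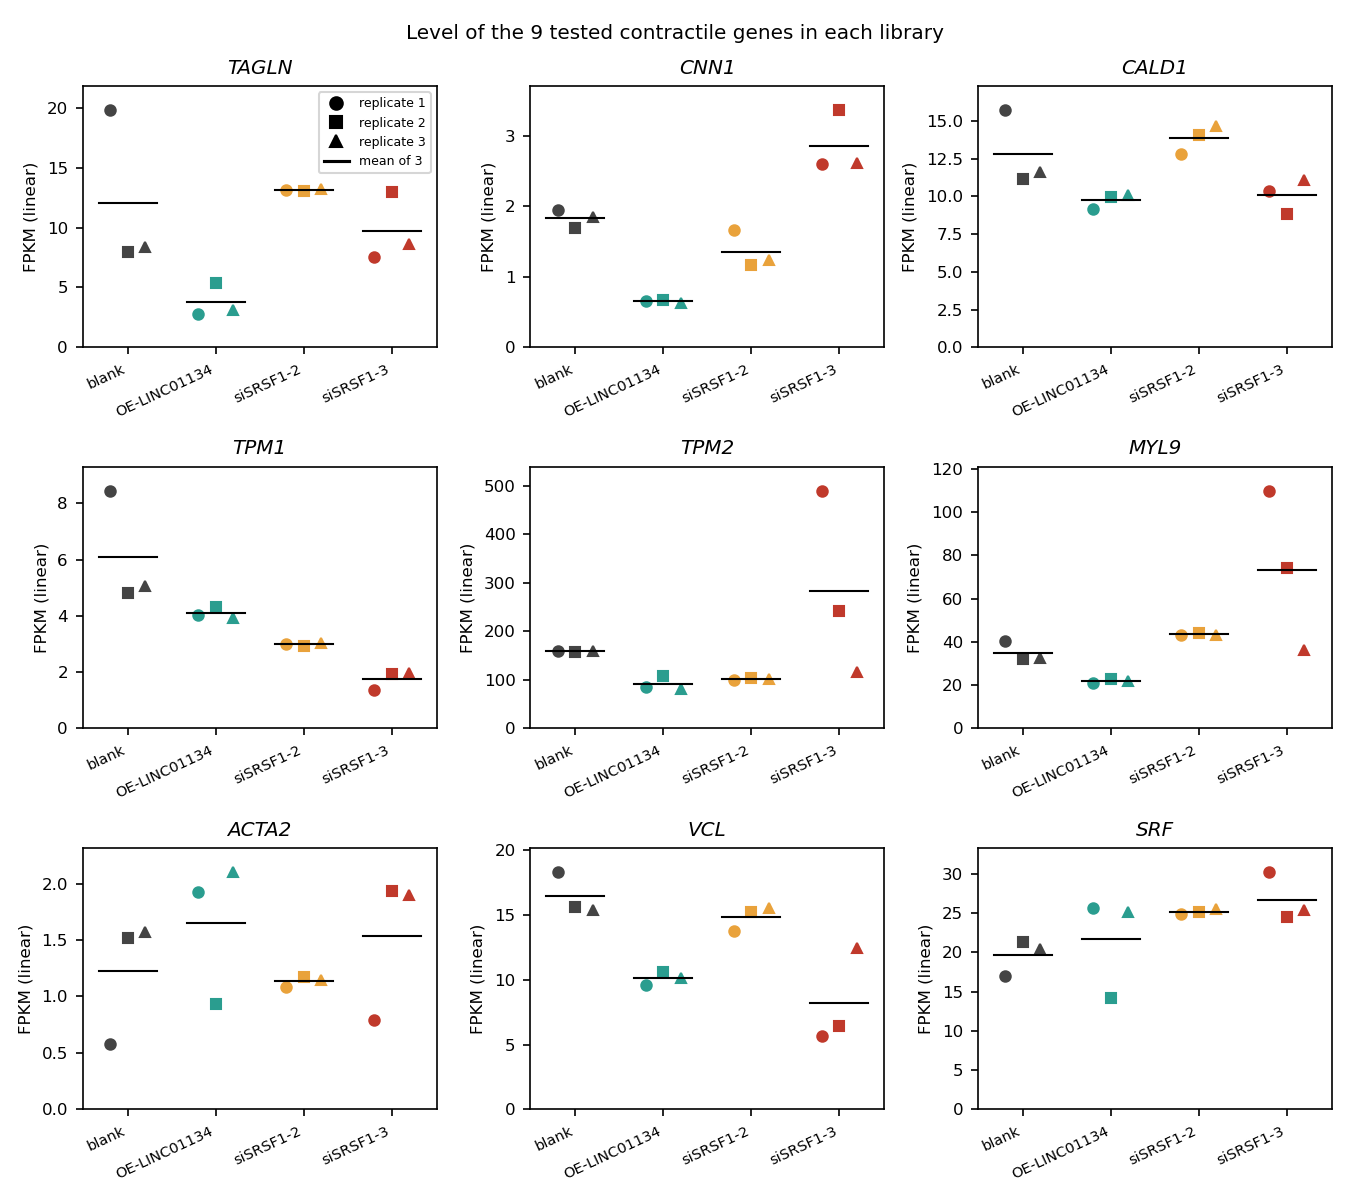
FPKM (linear axis from 0) of the 9 tested genes in each of the 12 libraries, with 1 symbol per replicate number and a line at the mean of 3. TAGLN and TPM1 stand high in blank replicate 1, TPM2 and MYL9 stand high in siSRSF1-3 replicates 1 and 2, and CNN1 is lowest in the 3 OE-LINC01134 libraries.

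The members lie on different chromosomes except for ACTA2 and VCL, which are both on chromosome 10. In the coordinates of the deposited table, whose genome build is not given in the sources used here, ACTA2 spans 88935074 to 88991339 on the minus strand of chromosome 10 and VCL 73995193 to 74121363 on its plus strand. TAGLN spans 117199321 to 117204782 on chromosome 11, CNN1 11538717 to 11550323 on chromosome 19 and MYL9 36541484 to 36551447 on chromosome 20, all on the plus strand. TPM1 spans 63042632 to 63071915 on the plus strand of chromosome 15 and TPM2 35681992 to 35690121 on the minus strand of chromosome 9. CALD1 spans 134744252 to 134970728 on chromosome 7, ACTG2 73892314 to 73919865 on chromosome 2 and SRF 43171299 to 43181507 on chromosome 6, all on the plus strand.

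Some reads could belong to neighbours or copies. ACTA2 overlaps the genes of the Fas receptor and of STAM binding protein like 1 on the other strand, which were more abundant than ACTA2 itself, with 319 to 1070 and 776 to 1185 reads per library. TAGLN overlaps the gene of proprotein convertase subtilisin/kexin type 7, with 166 to 857 reads, and VCL overlaps that of adaptor related protein complex 3 subunit mu 1, with 1630 to 3803 reads. Whether counting used strand is not given in the sources used here, so these reads cannot be told apart. Actins, tropomyosins and their processed pseudogenes are also near-identical in sequence, which makes the low counts of ACTA2 and ACTG2 the least certain.

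The comparison of OE-LINC01134 with blank cells asked which genes differ when the RNA is overexpressed, and here the contractile genes lay low together. Of the 9 tested members, 7 were lower in all 3 overexpressing libraries than in any blank library (TAGLN, CNN1, TPM2, VCL, MYL9, TPM1 and CALD1), and none was higher. Over all tested genes 13.8% were lower without overlap and 16.8% were higher. CNN1 fell past the threshold, which asked for both an adjusted p under 0.05 and a change of more than 1 on the log2 scale. Of all genes 0.85% passed it, and 0.593% passed it as lower. At an unadjusted p under 0.05, 6 members differed, all lower, against 26.3% of all genes. The median log2 fold change of the 9 members was -0.66, against 0.05 over all genes tested.

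CNN1 was at 0.657, 0.672 and 0.630 FPKM with OE-LINC01134, or 55, 53 and 52 reads, against 156, 139 and 174 reads in the blank libraries. All 3 values lay under the lowest blank value of 1.69 FPKM. The log2 fold change was -1.36 (SE 0.18, limma, adjusted p = 0.0402). TAGLN was at 2.79, 5.37 and 3.10 FPKM, also under every blank library, and its log2 fold change was larger but more variable, at -1.58 (SE 0.41, limma, adjusted p = 0.0874).

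TPM2 was at 85.3, 108 and 80.7 FPKM, where the blank libraries held 158 to 160, a log2 fold change of -0.81 (SE 0.13, limma, adjusted p = 0.0486) that stayed under the minimum fold. For MYL9 the overexpressing libraries held 21.0, 22.9 and 21.8 FPKM and the log2 fold change was -0.66 (SE 0.12, limma, adjusted p = 0.0586). VCL, at 9.56, 10.6 and 10.1 FPKM, gave -0.69 (SE 0.12, limma, adjusted p = 0.0502). These 3 genes did not pass the threshold, although every overexpressing library lay below every blank one.

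TPM1 was at 4.01, 4.33 and 3.94 FPKM (log2 fold change -0.52, limma, adjusted p = 0.201) and CALD1 at 9.19, 9.96 and 10.1 FPKM (log2 fold change -0.38, limma, adjusted p = 0.184). In both, the separation was small beside the gap between blank replicate 1 and the other blank libraries. SRF itself was at 25.6, 14.2 and 25.1 FPKM, around the blank range, with a log2 fold change of 0.10 (SE 0.24, limma, adjusted p = 0.817). ACTA2, at 1.92, 0.935 and 2.10 FPKM, also overlapped the blank libraries (log2 fold change 0.44, limma, adjusted p = 0.554). Thus the regulator's own RNA and the smooth muscle actin did not lie low with the 7 other genes.

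The same 7 genes were lower without overlap under rescaling to the same sum or to each library's own read total. They also were when each library was left out in turn, which is fixed in advance, as an omission cannot create overlap. The share of all genes lower without overlap was 15% to 27.1% over the omissions, and 10.8% and 13.7% under the rescalings. The call of CNN1 depended on which library was left out: its adjusted p (limma) was 0.0174 without blank replicate 1 and 0.00811 without OE-LINC01134 replicate 2, and it was 0.188 to 0.212 without any of the 4 others. Without OE-LINC01134 replicate 2, TAGLN also passed the threshold, with a log2 fold change of -1.87 (limma, adjusted p = 0.0349), and SRF and ACTA2 were higher without overlap. In that setting 33.4% of all genes were higher without overlap, and 1540 of 17538 genes were called, 1029 of them lower.

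**Figure D2:**
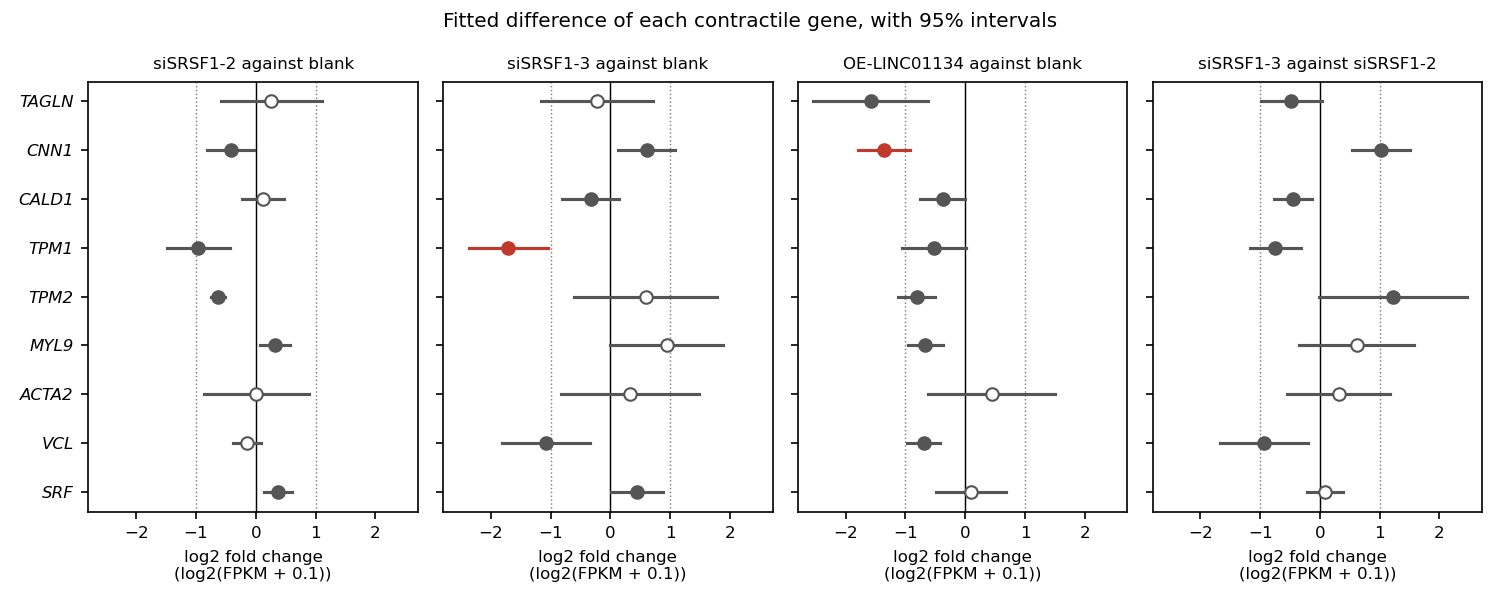
Log2 fold change on the scale log2(FPKM + 0.1) of each tested member in the 4 comparisons, with 95% intervals from limma. Red marks genes past the threshold (CNN1 with OE-LINC01134, TPM1 with siSRSF1-3), open circles mark groups that overlap, and dotted lines mark the minimum fold, with 7 of 9 members to the left of 0 and not overlapping in the OE-LINC01134 panel.

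The comparisons with the siRNAs asked which genes differ when SRSF1 is depleted. With siSRSF1-2 the members split: TPM2, TPM1 and CNN1 were lower in every library, SRF and MYL9 were higher in every library, and none of the 9 passed the threshold. The share of all genes that passed it was 4.95%, and 25.3% of all genes were higher and 24.2% lower without overlap. An unadjusted p under 0.05 was reached by 5 members, 2 of them higher, against 40.3% of all genes, and limma's voom on the recovered reads called 0. The median log2 fold change of the members was 0.01, against 0.02 over all genes tested.

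TPM2 was at 99.97, 105 and 102 FPKM with siSRSF1-2 against 158 to 160 in blank cells. Its log2 fold change was -0.64 (SE 0.05, limma, adjusted p = 0.00126), which stayed under the minimum fold. This SE was the smallest of the set, but reads of the siSRSF1-2 replicates varied little beyond sampling noise. Whether they came from separate cultures is not known. For every member in this comparison, the SE and p may therefore measure technical spread and not the precision of the difference. TPM1 was at 2.99, 2.93 and 3.02 FPKM, all below the blank range of 4.82 to 8.45, with a log2 fold change of -0.96 (SE 0.22, limma, adjusted p = 0.0231). Both tropomyosins of the set were thus low in this group.

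SRF was at 24.9, 25.1 and 25.5 FPKM, above every blank library, with a log2 fold change of 0.37 (SE 0.10, limma, adjusted p = 0.0373). Its difference was small, under the minimum fold. MYL9, at 43.0, 44.1 and 43.3 FPKM, gave 0.32 (SE 0.10, limma, adjusted p = 0.0605). CNN1 was at 1.66, 1.17 and 1.23 FPKM, lower in every library, with a log2 fold change of -0.42 (limma, adjusted p = 0.105).

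TAGLN was at 13.2, 13.0 and 13.2 FPKM, between blank replicate 1 and the other blank libraries, so that its log2 fold change of 0.26 (SE 0.35, limma, adjusted p = 0.617) depended on blank replicate 1. Without that library TAGLN, like CALD1, was higher in every siSRSF1-2 library, ACTA2 was lower in each, and the number of members without overlap went from 5 to 8. The shares of all genes without overlap rose as well, from 25.3% to 36.6% higher and from 24.2% to 33.9% lower. CALD1, at 12.8, 14.1 and 14.7 FPKM, and VCL, at 13.7, 15.2 and 15.6 FPKM, overlapped the blank libraries (log2 fold changes 0.12 and -0.14, limma, adjusted p = 0.557 and 0.303). ACTA2 was at 1.088, 1.17 and 1.15 FPKM, with a log2 fold change of 0.01 (95% interval -0.87 to 0.89).

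With siSRSF1-3 the long members were low and several shorter ones high, with wide spread. TPM1, VCL and CALD1 were lower in every siSRSF1-3 library than in any blank library, and CNN1 and SRF were higher in each. TPM1 fell past the threshold, which 1.26% of all genes passed and 0.929% passed as lower. An unadjusted p under 0.05 was reached by 4 members, 2 of them higher, against 28.8% of all genes. Of all genes, 19.2% were higher and 18% lower without overlap. The median log2 fold change of the 9 members was 0.32, against -0.01 over all genes.

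TPM1 was at 1.38, 1.95 and 1.96 FPKM with siSRSF1-3, below every blank library, with a log2 fold change of -1.71 (SE 0.28, limma, adjusted p = 0.0456). This p was near the threshold, and TPM1 lost the call when any single library other than siSRSF1-3 replicate 3 was left out, with adjusted p-values of 0.0873 to 0.219. VCL was at 5.66, 6.40 and 12.5 FPKM and CALD1 at 10.4, 8.83 and 11.1 FPKM. For VCL the log2 fold change was -1.08 (SE 0.31, limma, adjusted p = 0.0987), with replicate 3 much nearer to the blank range than the other two. For CALD1 it was -0.33 (SE 0.20, limma, adjusted p = 0.296).

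TPM1, VCL and CALD1 are the longest genes of the set, with 12876, 9992 and 9843 bases, while the other members are 2821 to 4202 bases long. Over all tested genes of 8000 or more bases the median log2 fold change with siSRSF1-3 was -0.25, and over genes of 2000 to 5000 bases it was 0.11. CALD1 lay near the median of its length class, and VCL and TPM1 lay below the lower quartile of that class, -0.61. The part of gene length in these results was not tested. In the siSRSF1-2 comparison the median of the longest class was 0.16, and TPM1 lay below it there too.

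**Figure D3:**
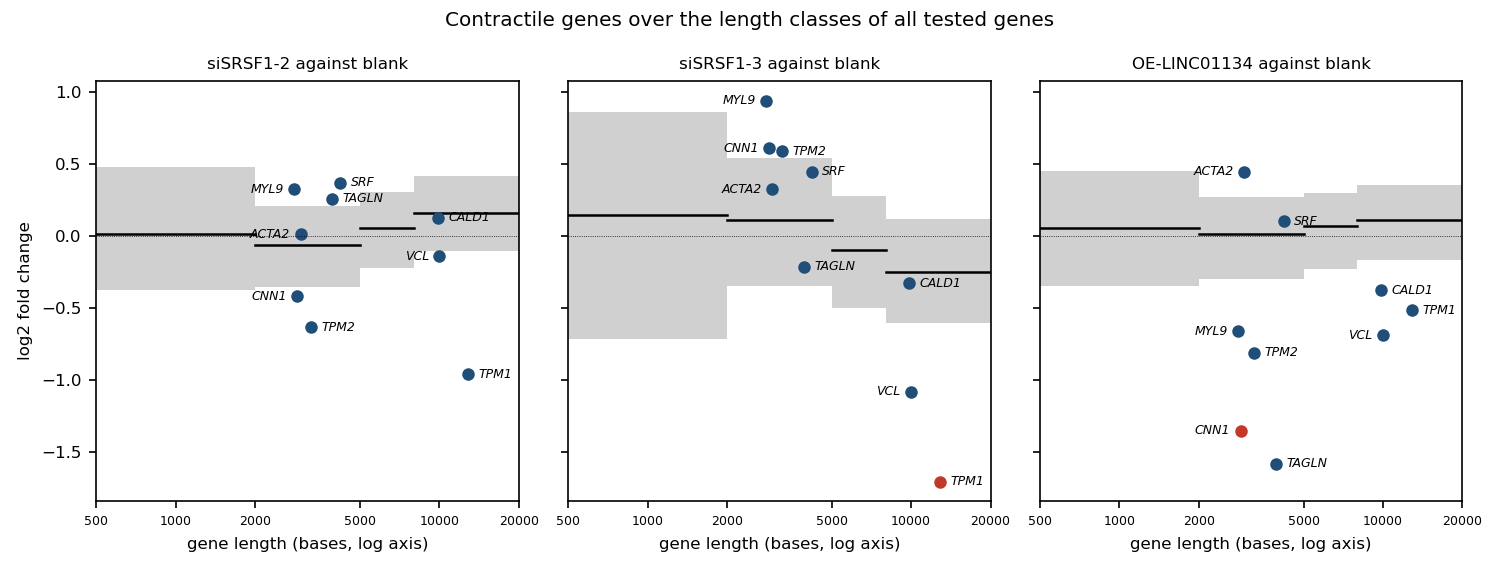
Log2 fold change of the tested members against gene length (bases, log axis), with the median (line) and the quartiles (grey) of all tested genes in 4 length classes, the outer classes being cut off by the axis. With siSRSF1-3 the class medians go from 0.14 to -0.25 with length, and TPM1 and VCL lie below the lower quartile of the longest class.

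TPM2 and MYL9 were the least even members with siSRSF1-3. TPM2 was at 490, 242 and 115 FPKM, so that replicates 1 and 2 were above and replicate 3 below every blank library. MYL9 was at 109.9, 74.0 and 36.3 FPKM, with replicate 3 inside the blank range. Their log2 fold changes of 0.59 (SE 0.50) for TPM2 and 0.94 (SE 0.40) for MYL9 did not pass the test (limma, adjusted p = 0.443 and 0.175). Without siSRSF1-3 replicate 3 both passed the threshold, as did VCL and TPM1, at log2 fold changes of 1.11 for TPM2, 1.37 for MYL9, -1.43 for VCL and -1.79 for TPM1. Over all genes, 4184 were then called in place of 221.

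CNN1 was at 2.60, 3.37 and 2.61 FPKM, above every blank library, with a log2 fold change of 0.61 (SE 0.20, limma, adjusted p = 0.119). SRF was at 30.2, 24.5 and 25.4 FPKM and gave 0.44 (SE 0.18, limma, adjusted p = 0.169). Neither passed the test, and both positions rested on the scaling of the deposited values, as neither was higher without overlap after rescaling to the same sum or to own read totals. Under the first of these rescalings the median of all genes moved from -0.01 to -0.43, and relative to it CNN1 at 0.18 and SRF at 0.00 lay above the median gene. TAGLN, at 7.53, 12.9 and 8.61 FPKM, and ACTA2, at 0.788, 1.93 and 1.90 FPKM, overlapped the blank libraries (log2 fold changes -0.22 and 0.32, limma, adjusted p = 0.723 and 0.669).

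The siRNAs were also compared with each other, since both target SRSF1. In siSRSF1-3 against siSRSF1-2 CNN1 and TPM2 were higher in every library and TAGLN, TPM1, CALD1 and VCL lower in every library, but none of the 9 passed the threshold in limma. An unadjusted p under 0.05 was reached by 4 members, 1 of them higher, against 42.1% of all genes, and voom called 0. Of all genes 0.0855% passed, while 27% were higher and 27.6% lower without overlap.

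CNN1 differed by a log2 fold change of 1.03 (SE 0.20, limma, adjusted p = 0.0725), the siSRSF1-3 libraries holding 2.60 to 3.37 FPKM and the siSRSF1-2 libraries 1.17 to 1.66. The differences were -0.74 for TPM1 (limma, adjusted p = 0.0778), -0.94 for VCL (0.0881), -0.46 for CALD1 (0.0824) and -0.47 for TAGLN (0.136). TPM2, at 1.22 with an interval from -0.01 to 2.46 (limma, adjusted p = 0.121), and MYL9, at 0.61 with an interval from -0.34 to 1.57, varied widely in the siSRSF1-3 group and did not pass the test. TPM2 was nevertheless higher in every siSRSF1-3 library (115 to 490 FPKM) than in any siSRSF1-2 library (99.97 to 105), whereas MYL9 overlapped. SRF and ACTA2 differed by 0.08 (95% interval -0.22 to 0.38) and 0.31 (95% interval -0.55 to 1.17).

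Across the 4 groups TAGLN and CALD1 shared an order of mean levels, as did CNN1 and TPM2, and each other member had a different one. For TPM1 all neighbours were separate, in the order blank (6.11 ± 2.03 FPKM, SD, n = 3), OE-LINC01134 (4.09 ± 0.21), siSRSF1-2 (2.98 ± 0.05) and siSRSF1-3 (1.76 ± 0.33). CNN1 was also separate at every step, in the order siSRSF1-3 (2.86 ± 0.44), blank (1.83 ± 0.13), siSRSF1-2 (1.36 ± 0.27) and OE-LINC01134 (0.653 ± 0.021). MYL9 ran from siSRSF1-3 through siSRSF1-2 and blank to OE-LINC01134, the first 2 of these overlapping. In TPM2 the siSRSF1-3 group overlapped the blank group, which lay above siSRSF1-2 and OE-LINC01134, and those overlapped.

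For TAGLN the siSRSF1-2, blank and siSRSF1-3 groups overlapped one another in turn, and OE-LINC01134 lay below them. CALD1 had siSRSF1-2 and blank, which overlapped, above siSRSF1-3 and OE-LINC01134, which also overlapped. VCL had blank and siSRSF1-2, overlapping, above OE-LINC01134 and siSRSF1-3, overlapping. In ACTA2, ACTG2 and SRF every pair of neighbours overlapped. OE-LINC01134 had the lowest mean in TAGLN, CNN1, MYL9, TPM2 and CALD1 and among the low counts of ACTG2.

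Within a library the balance of each member against its paralogs does not depend on how libraries were scaled. The ratio of TPM2 to TPM1 FPKM was 19.0, 32.7 and 31.5 in the blank libraries and 20.5 to 24.98 with OE-LINC01134. It was 33.5, 35.7 and 33.8 with siSRSF1-2, just above the blank libraries, and 355, 124 and 58.9 with siSRSF1-3. Both siRNA groups lay above every blank library, for which an exact permutation test of 3 against 3 libraries can give no p below 0.1. TPM1 is the longer of the pair, and the spread with siSRSF1-3 went with the length pattern of its replicates. Its part was not tested.

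Among the 4 tropomyosin genes, TPM2 made up 56.8% to 61.7% of the summed FPKM in blank cells, 53.1% to 56.5% with OE-LINC01134, 57.7% to 58.1% with siSRSF1-2 and 60.9% to 86.6% with siSRSF1-3. The sum itself was 256 to 282 FPKM in blank cells, 146 to 204 with OE-LINC01134 and 173 to 180 with siSRSF1-2, so the summed level was lower in both of those groups. With siSRSF1-3 the sum was 565.5, 316.5 and 189.5 FPKM, on both sides of the blank range. TPM1 made up 1.88% to 2.99% of the sum in blank cells and 2.12% to 2.70% with OE-LINC01134, which overlapped. It made up 1.63% to 1.73% with siSRSF1-2 and 0.244% to 1.03% with siSRSF1-3, both below every blank library.

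CNN1 was a minor calponin throughout. Of the summed FPKM of CNN1, CNN2 and CNN3, it made up 1.72%, 2.87% and 3.05% in blank cells, 1.23%, 0.974% and 1.19% with OE-LINC01134, 3.44%, 2.35% and 2.48% with siSRSF1-2, and 11.9%, 8.80% and 6.02% with siSRSF1-3. The OE-LINC01134 libraries lay below and the siSRSF1-3 libraries above every blank library. With siSRSF1-3 CNN2 and CNN3 were themselves lower in every library (log2 fold changes -1.33 and -1.21, limma, adjusted p = 0.0651 and 0.131), which raises the share of CNN1. TAGLN, out of the 3 transgelins, made up 2.80% to 4.58% in blank cells, 1.12% to 1.62% with OE-LINC01134 and 6.99% to 7.03% with siSRSF1-2, the latter above every blank library, and 1.98% to 4.03% with siSRSF1-3. With siSRSF1-2 TAGLN itself overlapped the blank libraries, while TAGLN2 was at 173 to 174 FPKM against 267 to 413 in blank cells, which raises the share of TAGLN. MYL9 made up 6.03% to 8.50% of the 3 light chains MYL9, MYL12A and MYL12B in blank cells, 4.51% to 4.90% with OE-LINC01134, 8.01% to 8.27% with siSRSF1-2 and 5.69% to 7.24% with siSRSF1-3. In the OE-LINC01134 libraries CNN1, TAGLN and MYL9 were therefore each low also beside their own non-muscle paralogs.

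**Figure D4:**
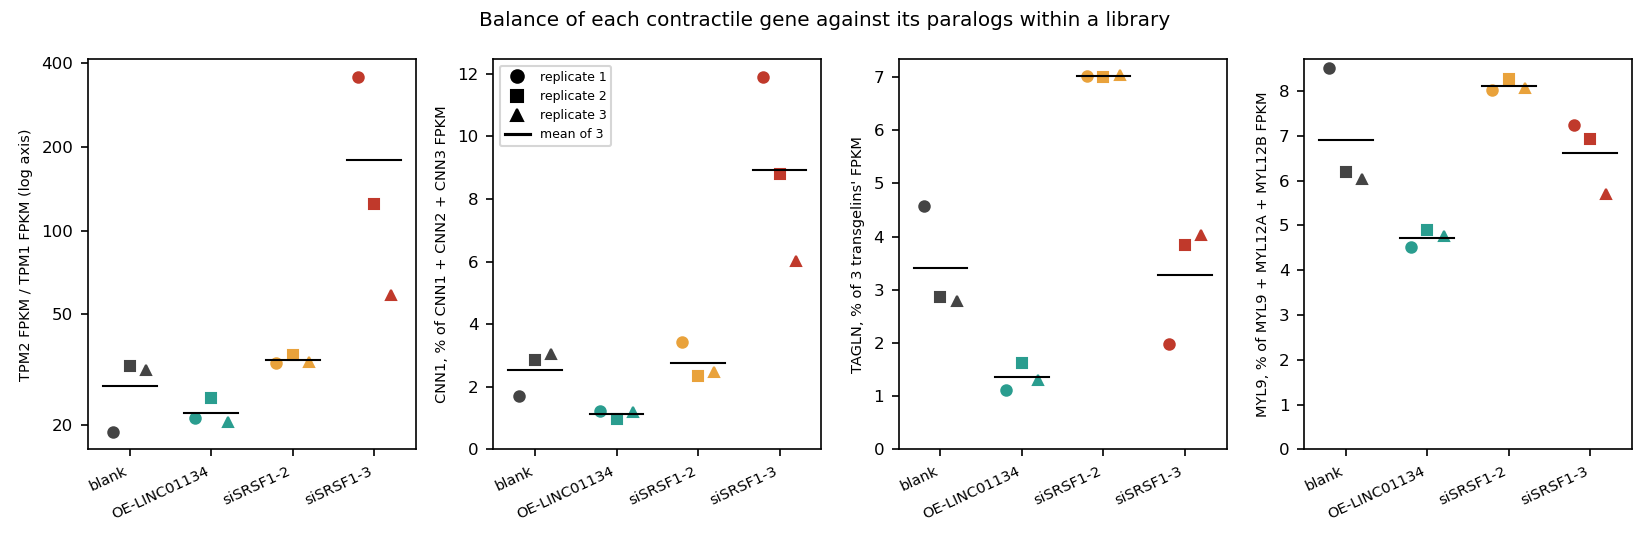
Ratio of TPM2 to TPM1 (log axis) and the percent of summed FPKM that CNN1, TAGLN and MYL9 make up among their paralogs, by library, with 1 symbol per replicate number and a line at the mean of 3. The OE-LINC01134 libraries lie below all blank libraries in the CNN1, TAGLN and MYL9 panels, and the siSRSF1-3 libraries above them in the TPM2 to TPM1 and CNN1 panels.

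Among the partners of SRF, MYOCD, the muscle-restricted coactivator, was at or under 0.0317 FPKM in every library, with 0 to 8 reads. MRTFA was at 10.3, 8.11 and 7.86 FPKM in blank cells, 10.5, 10.3 and 10.1 with OE-LINC01134, 9.21, 9.08 and 9.19 with siSRSF1-2 and 12.5, 11.3 and 10.97 with siSRSF1-3, the last group above every blank library (log2 fold change 0.41, limma, adjusted p = 0.184). MRTFB was at 2.54, 1.75 and 1.87 FPKM in blank cells and at 3.02, 2.57 and 3.08 with OE-LINC01134, higher in every library (log2 fold change 0.49, limma, adjusted p = 0.165). With siSRSF1-2 MRTFB was at 2.48, 2.51 and 2.76 FPKM and with siSRSF1-3 at 0.905, 1.21 and 1.95 FPKM. None of the 7 tested cofactors out of 9 passed the threshold in limma in any of the 4 comparisons.

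At an unadjusted p under 0.05, 3 of the 7 cofactors differed with siSRSF1-2, 0 with siSRSF1-3, 2 with OE-LINC01134 and 3 between the siRNAs, against 40.3%, 28.8%, 26.3% and 42.1% of all genes, and voom called 0 in each. ELK1, the ternary complex factor, gave 0.32 on the log2 scale with siSRSF1-2 (limma, adjusted p = 0.0136), under the minimum fold. ELK3, a related factor, gave -0.21 with siSRSF1-2 (limma, adjusted p = 0.0594).

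Of 31 actomyosin and adhesion partners, 30 were tested and MYH10, the heavy chain of non-muscle myosin IIB, fell with siSRSF1-3. It was at 8.95, 7.95 and 7.92 FPKM in blank cells and at 1.61, 2.17 and 3.61 with siSRSF1-3, a log2 fold change of -1.78 (SE 0.30, limma, adjusted p = 0.0477). Of all genes 1.26% were called there, and no partner was called when any single library other than siSRSF1-3 replicate 3 was left out. Without that one 10 partners were called, all lower. Over all 17538 tested genes 4184 were then called, 1992 of them lower. With siSRSF1-2 MYH10 was at 5.33, 5.41 and 5.58 FPKM (log2 fold change -0.59, limma, adjusted p = 0.00447, under the minimum fold). No partner passed the threshold with siSRSF1-2 or OE-LINC01134 in limma, where 19 and 9 differed at an unadjusted p under 0.05, against 40.3% and 26.3% of all genes, and voom called 0 and 1. With siSRSF1-3 14 of the 30 differed at that p, 13 of them lower, against 28.8% of all genes, and voom called 3. With OE-LINC01134 11 of the 30 were lower without overlap and 1 higher, against 13.8% and 16.8% of all genes, and their median log2 fold change was -0.20, against 0.05 over all genes.

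The 9 non-muscle paralogs of the members, among them TAGLN2 and MYL12B, and the other actins ACTB and ACTG1 held no gene past the threshold in limma in any comparison with blank cells. At an unadjusted p under 0.05, 5 paralogs differed with each siRNA and 1 with OE-LINC01134, against 40.3% (siSRSF1-2), 28.8% (siSRSF1-3) and 26.3% of all genes, and voom called 0, 1 and 0 (siSRSF1-2, siSRSF1-3 and OE-LINC01134), while of the actins ACTG1 alone differed, with siSRSF1-2 and OE-LINC01134, and voom called 0. TAGLN2, the most abundant transgelin, gave a log2 fold change of -0.87 with siSRSF1-2 (limma, adjusted p = 0.0131, under the minimum fold) and -0.26 with OE-LINC01134 (limma, adjusted p = 0.451). MYL12B gave 0.99 with siSRSF1-3 (limma, adjusted p = 0.162). ACTG1 gave -0.69 with OE-LINC01134 (limma, adjusted p = 0.0507), lower in every library, and ACTB -0.31 (limma, adjusted p = 0.391).

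A list of immediate early genes, written as SRF targets linked to ternary complex factors, had 12 of 14 tested and none past the threshold in limma in these comparisons. Which partner of SRF acts on each of these genes was not tested. With OE-LINC01134 6 of the 12 differed at an unadjusted p under 0.05 (1 higher and 5 lower), against 26.3% of all genes, and voom called 0 in each comparison. With siSRSF1-2 4 differed and with siSRSF1-3 1, both smaller shares than the 40.3% and 28.8% of all genes. Without overlap, 5 of the 12 were higher and 2 lower with siSRSF1-2, against 25.3% and 24.2% of all genes. Their log2 fold changes there ran from -0.54 to 1.63. Leaving out blank replicate 1 gave 4 calls from the list with OE-LINC01134, where 963 of 17538 genes were called. CCN1, a matricellular protein on this list, gave -0.54 with siSRSF1-2 (limma, adjusted p = 0.0126, under the minimum fold) and 0.15 with OE-LINC01134 (limma, adjusted p = 0.711). MCL1, a survival factor, gave 0.40 with siSRSF1-2 (limma, adjusted p = 0.0123, under the minimum fold). The median of the list was 0.25 with siSRSF1-2, -0.19 with siSRSF1-3 and -0.35 with OE-LINC01134. Over all genes tested it was 0.02, -0.01 and 0.05.

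The members did not vary as a block within a group either. In blank replicate 1, against the mean of the other blank libraries, TAGLN was 1.27 and TPM1 0.76 higher on the log2 scale, and ACTA2 was 1.27 lower. With differences ranked by sign, from the most raised gene to the most lowered, 2.16% of all tested genes lay above TAGLN, 7.21% above TPM1 and 95.5% above ACTA2, so ACTA2 was among the most lowered genes of that library. In OE-LINC01134 replicate 2 TAGLN was 0.85 higher and ACTA2 1.03 and SRF 0.84 lower than in the other overexpressing libraries. The 2 libraries that stood apart in these groups thus both had more TAGLN and less ACTA2 than their companions. In siSRSF1-3 replicate 1 ACTA2 was 1.18 lower as well, but TAGLN was 0.48 lower, while TPM2 was 1.55 and MYL9 1.08 higher.

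Likeness of profiles over the 12 libraries was measured as the root mean square difference of centred log2 values. For each tested member the most alike gene outside the set was sought. For TPM2 it was glia maturation factor gamma, at 0.12, for CALD1 dimethylarginine dimethylaminohydrolase 1, at 0.09, and for SRF ceramide synthase 6, at 0.10. VCL was nearest to signal induced proliferation associated 1 like 3, at 0.13, and TPM1 to acetyl-CoA acetyltransferase 2, at 0.18. For CNN1 and TAGLN the nearest profiles were less alike, at 0.26 for uncharacterized LOC100505501 and 0.32 for doublecortin like kinase 1. MYL9 was nearest to an unnamed antisense transcript, at 0.14, and ACTA2 to mitogen-activated protein kinase kinase kinase 10, at 0.21. Each member's closest fellow member was less alike than the gene named, the closest pair of members being CALD1 and VCL, at 0.35. With 9 members among 17538 tested genes, a nearer gene outside the set is likely whatever the members do. The search therefore cannot tell whether they vary together.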

How the data were processed

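RNA of U2OS cells was measured by RNA-Seq in 12 libraries of 4 groups. The authors deposited FPKM per gene and library with gene lengths, coordinates and full names. Aligner, counting program and human genome build are not given in the sources used here, and the labels and the supplementary methods name different library kits. FPKM times gene length gave whole reads for 100% of the values within 0.01 read, so reads on genes (26237763 to 32954539 per library) were recovered, and the deposited FPKM carried median-of-ratios size factors. For each comparison, log2(FPKM + 0.1) of the 3 + 3 libraries entered a fit by limma 3.58.1 (R 4.3.3, lmFit and eBayes with trend) for the 17538 genes whose mean FPKM reached 0.5, with Benjamini-Hochberg adjustment over all of them. A gene was called where its adjusted p was under 0.05 and its log2 fold change exceeded 1 in size, a scale that understates changes of low genes. Single genes also had two-sided exact permutation tests, which cannot go below 0.1 here. Ratios and shares within a library were described without a test. The fit was tested on simulated data of the siSRSF1-2 comparison with 200 of 17538 genes changed by 2 on the log2 scale. Of these 196 were called, and 8 unchanged genes. The simulated libraries varied independently with a common spread, with no near-identical libraries, no libraries apart and no length pattern. It therefore gives no error rate for the real libraries.

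All 130 symbols looked up were matched by full name. The members, the lists and the marker lists (smooth muscle, skeletal muscle, osteoblast, epithelial, endothelial, blood and mesenchymal) were written from gene function with earlier results of these data known. Named were all members, SRSF1 and LINC01134, the myocardin family, the other actins, up to 4 called genes of each list or else its 2 most abundant genes, and the gene with the profile nearest to each member. The MYH11, desmin, LMOD1, ALPL, PDGFRB, CNN2 and CNN3 values were added after they were seen. Replicate numbers did not pair the libraries: correlations of deviations between same-numbered libraries ran from -0.08 to 0.21, 2 of 18 over 0.1. Alternatives were other pseudocounts, filters and scalings, 1 fit over 4 groups, no trend, no minimum fold, a replicate block, voom on the recovered reads, the siSRSF1-2 libraries averaged and the omission of each library. The averaging of near-identical libraries, and the counts of groups without overlap under other settings, were chosen after seeing the data. Human sequences were not used here, and 1 list of signalling genes is not reported here.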

Additional observations from a re-analysis of the deposited data

Results flagged for a closer look

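CNN1 lay on opposite sides of the blank libraries in the siRNA groups, although neither comparison with blank cells passed the test (log2 fold changes -0.42 and 0.61, limma, adjusted p = 0.105 and 0.119). All 3 siSRSF1-2 libraries (1.17 to 1.66 FPKM) lay below and all 3 siSRSF1-3 libraries (2.60 to 3.37 FPKM) above the blank libraries (1.69 to 1.95 FPKM). The difference between the siRNA groups was a log2 fold change of 1.03 (SE 0.20, limma, adjusted p = 0.0725; exact permutation p = 0.1, the smallest that 3 against 3 libraries can give), so it did not pass the threshold. It passed in 1 fit over the 4 groups (adjusted p = 0.0126) and without siSRSF1-3 replicate 3 (adjusted p = 0.00958), and adjusted p ranged from 0.00958 to 0.639 over all alternatives. After rescaling all libraries to 1 common FPKM sum, CNN1 no longer lay apart from the blank libraries in either siRNA group. The cause was not tested.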

How the results depend on the processing

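Counts of calls depended on the settings. With siSRSF1-2 (868 genes, 0 members called), 379 genes were called with a pseudocount of 1, 314 in 1 fit over 4 groups, 4702 genes and 3 members with no minimum fold, and 0 genes with the siSRSF1-2 libraries or all near-identical libraries averaged. With siSRSF1-3 (221 genes, 1 member), 63 genes were called with a pseudocount of 0.01, 116 with no filter, 1 with the same sum in every library, 69 with own read totals and 0 with near-identical libraries averaged. The member TPM1 was lost in each of these 5 and with no trend, leaving 0 members, while voom called 587 genes, and 1 fit over 4 groups 2422 genes and 2 members. With OE-LINC01134 (149 genes, 1 member), 81 genes were called with no filter, 348 with voom, 689 genes and 2 members in 1 fit, 2 members with no minimum fold, 0 members with a pseudocount of 1, and 1 gene and 0 members with near-identical libraries averaged. For siSRSF1-3 against siSRSF1-2 (15 genes, 0 members), 84 genes were called with a pseudocount of 1, 1 with 0.01, 109 with no filter, 36 with a mean of at least 1, 8 with the same sum, 2731 genes and 2 members in 1 fit, 110 with voom and 0 with near-identical libraries averaged.

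Leaving out 1 library gave 534 to 1188 genes and 0 to 1 members with siSRSF1-2, 0 to 4184 and 0 to 4 with siSRSF1-3, 1 to 1540 and 0 to 2 with OE-LINC01134, and 0 to 5358 and 0 to 4 between the siRNAs. The highest gene counts came without blank replicate 1, siSRSF1-3 replicate 3, OE-LINC01134 replicate 2 and siSRSF1-3 replicate 3, in this order. The same omissions gave the highest member counts, except with siSRSF1-2, where 1 member was called without blank replicate 2 or 3 and 0 without blank replicate 1. Members without overlap, whose number an omission cannot lower, were 5 to 8, 5 to 7, 7 to 9 and 6 to 7. They were 3 with siSRSF1-3 under the same sum or own read totals. In this order, and without the libraries that gave the highest gene counts, 36.6%, 33.3%, 33.4% and 38.8% of all genes were higher without overlap. The shares that were lower were 33.9%, 33.3%, 27.1% and 39.8%. With siSRSF1-3, 9.28% were higher and 23% lower under the same sum, and 13.4% and 21.8% under own read totals. The cause was not tested.

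With a replicate block, 681 genes and 0 members were called with siSRSF1-2, 0 and 0 with siSRSF1-3, 4 and 0 with OE-LINC01134 and 0 and 0 between the siRNAs. The numbers do not pair these libraries.

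Signs reversed only in values that were not called. ACTA2 with siSRSF1-2 was -0.024 with a pseudocount of 1 and ran from -0.41 (without blank replicate 1) to 0.23 as single libraries were left out, and was -0.010 without siSRSF1-2 replicate 2. With siSRSF1-3 ACTA2 was -0.070 under the same sum and ran from -0.10 (without blank replicate 1) to 0.72, and TAGLN from -0.45 to 0.21 (without blank replicate 1). SRF with OE-LINC01134 ran from -0.047 (without OE-LINC01134 replicate 1) to 0.38, with -0.000125 without blank replicate 1 and -0.032 without OE-LINC01134 replicate 3. Between the siRNAs, ACTA2 was -0.20 and SRF -0.50 under the same sum, and SRF was -0.23 under own totals and ran from -0.015 (without siSRSF1-3 replicate 1) to 0.14. The same sum moved the median of all genes from 0.02 to 0.15 (siSRSF1-2), -0.01 to -0.43 (siSRSF1-3), 0.05 to 0.14 (OE-LINC01134) and -0.02 to -0.57 (between the siRNAs), and the share of calls that were higher from 44.8% to 64%, 26.2% to 100%, 30.2% to 44.6% and 40% to 12.5%. Own totals moved it from 26.2% to 15.9% with siSRSF1-3. Depth limits ACTG2, ACTA2 and CNN1, with 0 to 6, 46 to 179 and 52 to 247 reads per library.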
